A study of Mus musculus with 7 samples.

Results

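The genes described here are 1129 processed pseudogenes of mouse neural stem cells (NSCs), out of 55335 genes in the count table. They were chosen by annotation and by measured values: the Gencode type had to be processed_pseudogene or transcribed_processed_pseudogene, the count summed over the 7 samples had to be 100 or more, and the symbol could not begin with Rpl or Rps. The annotation held 10234 processed pseudogenes of these types, of which 7631 had at least 1 count. Of those without an Rpl or Rps symbol, 8804 stayed under 100 counts and 2599 of these were at 0, while another 163 with 100 counts or more were left out for their Rpl or Rps symbol. Because the summed count chose the members, their levels are a description and were not tested. At the edge of the rule, AC154544.1 and Ap3s1-ps1 were inside with 100 counts each, and Gm2333 and Gm5550 were outside with 99 each.

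The cells were NSC lines from FVB/N mice, 4 wild-type (WT) and 3 carrying the MommeD1 null mutation of *Smchd1* (*Smchd1*-null), a chromatin repressor, and all were grown with EGF and bFGF. Unamplified cDNA of poly(A) RNA was read on nanopore flow cells in 2 batches, one flow cell each, with successive versions of the library kit. WT 2, null 1 and null 2 were in batch 1, WT 3, WT 4 and null 3 in batch 2, and WT 1 held summed reads of both. No source said whether samples of a genotype came from separate animals, so p-values measure the spread between these samples.

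A processed pseudogene is a copy of a spliced messenger RNA that was reverse transcribed and inserted elsewhere in the genome. It usually lacks the introns and the promoter of its parent gene and is often close to the parent's mRNA in sequence, most of all when the insertion is recent. Highly transcribed housekeeping genes, ribosomal protein genes above all, have left the largest families of such copies in mammalian genomes. A long read of the parent's mRNA and a long read of such a copy therefore differ at few bases, and only primary alignments were counted, so each read went to one place. Counts on these genes are counts of reads placed there, and transcription of the copy was not measured separately.

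Each sample held between 2.74 and 7.74 M counts. *Smchd1* was at 55.7 to 74.7 counts per M (CPM) in WT and at 12.8 to 18.4 CPM in *Smchd1*-null. All 8 NSC markers (among them *Nes*, *Sox2* and *Fabp7*) were counted in every sample, with a summed level of 8289 to 13530 CPM, against 0.433 to 1.11 CPM for 4 microglia markers and 0.444 to 3.93 CPM for 3 endothelial markers. The summed level of 3 fibroblast markers ranged from 8.91 to 72.0 CPM and that of 4 oligodendrocyte markers from 710 to 962 CPM. Their part in the results was not tested.

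The copies of 2 genes show what the reads had to tell apart. Each member was matched to the protein-coding transcript of the same annotation with the best alignment, called its parent. The windows shown are 90 bases of coding sequence (Gencode, GRCm38), 5′ to 3′ on the transcript strand. Capitals in a member mark bases that differ from the parent, capitals in the parent mark every position at which a member shown differs, and positions count from the first base of the start codon.

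For *Ppia*, which encodes the peptidyl-prolyl isomerase cyclophilin A, the windows come from the member with most counts, the next one, and the leading member under 95% identity. They were Gm10123 (chr9:96895915-96896004, plus strand), Gm43008 (chr3:39217606-39217695, minus strand) and Gm49039 (chr14:35820830-35820919, plus strand), beside *Ppia* itself (chr11:6419181-6419270, plus strand). Gm10123 carried 0 differences over the aligned coding sequence, Gm43008 carried 7 and Gm49039 carried 47, of which 2 and 15 lie in the window.
Ppia: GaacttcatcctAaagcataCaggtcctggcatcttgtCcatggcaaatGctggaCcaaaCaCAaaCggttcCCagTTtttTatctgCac
Gm10123: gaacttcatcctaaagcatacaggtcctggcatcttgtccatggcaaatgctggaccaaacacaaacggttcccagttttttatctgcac
Gm43008: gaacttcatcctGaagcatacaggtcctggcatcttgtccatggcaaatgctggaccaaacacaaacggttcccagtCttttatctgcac
Gm49039: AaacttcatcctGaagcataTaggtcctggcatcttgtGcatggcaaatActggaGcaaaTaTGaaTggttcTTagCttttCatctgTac

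For *Gapdh*, a glycolytic enzyme, the copy was Gm13394 (chr2:28934220-28934309, minus strand), shown because its count stood far above that of its parent. The parent window joins 2 exons within chr6:125162972-125163159, minus strand. A single difference (A346C) separated them.
Gapdh: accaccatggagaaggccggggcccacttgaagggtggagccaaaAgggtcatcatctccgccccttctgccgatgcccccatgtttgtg
Gm13394: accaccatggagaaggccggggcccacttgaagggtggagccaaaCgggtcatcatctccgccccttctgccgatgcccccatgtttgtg

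Members were short and mostly of 1 exon. Their median length was 531 bases (quartiles 377 and 865), 1043 of 1129 had 1 exon, and 957 were known only by a Gm symbol. A total of 150 lay within an intron of a gene on the same strand and 212 within an intron on the other strand, while exons of 11 overlapped another gene's exon on the same strand and exons of 19 on the other strand. A parent was found for 1120 members among 511 genes, at a median identity of 97.7% (quartiles 95.4% and 99.2%), and 79 were identical to it over the aligned length. For 96 members another gene matched nearly as well, so their parent is uncertain, and 16 members shared their whole sequence with another member. Although Rpl and Rps symbols were excluded, 407 members had a ribosomal protein parent.

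Summed counts were concentrated on few members. The median member had 439 counts and the highest 164800, and the 10 members with most counts held 22.5% of the 4138262 counts on all members. Gm10123 (chr9:96895658-96896147, plus strand), the identical copy of *Ppia*, had 18129, 23193, 19349 and 25402 counts in WT 1 to 4 and 15213, 39666 and 23848 in null 1 to 3. *Ppia* itself had 771, 1045, 1155 and 1451 counts in the WT samples and 637, 2102 and 1236 in the *Smchd1*-null samples. The copy thus exceeded the parent in all 7 samples, 19.6 times in summed counts and 46.9 times per kilobase of transcript.

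The other members at the top were copies of genes for ribosomal proteins and 2 abundant cytosolic proteins. Gm14303 (chr2:172509521-172509691, minus strand; parent *Rps29*, identical) had 130633 counts, 24.7 times its parent per kilobase. Tpt1-ps3 (chr6:99877816-99878334, minus strand), an identical copy of *Tpt1* (a translationally controlled protein), had 92555 counts against 26069. Gm15459 (chr5:5781615-5783555, minus strand), a copy of the chaperone gene *Hspa8* whose exon overlaps that of Gm26825 on the other strand, had 71041 counts against 8707. The top 10 also held Gm15710 (*Rpl13*), Gm11478 (*Rpl13a*), Gm10288 (*Rpl11*) and Gm9794 (*Rpl23*), with 69961 to 76504 counts each, all above their parents.

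Most members stood far below their parents. The median ratio of member to parent count was 0.105, or 0.236 per kilobase of transcript, and 198 members had more counts than their parent (306 per kilobase). The ratio moved with identity. It had a median of 0.0171 in the 91 members under 90% identity, 0.0248 at 90 to 95% (159 members), 0.0421 at 95 to 97% (207), 0.119 at 97 to 99% (342), 0.538 from 99% to under 100% (242) and 1.41 in the 79 identical members. Across the 1112 members with a counted parent, Spearman's rho between identity and the ratio was 0.644, a description over genes of the same 7 libraries, many of which share a parent. Members from 99% to under 100% identity held 46.9% of all member counts, and identical members 25.6%. Median lengths ran only from 438 to 576 bases over these classes.

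**Figure D1:**
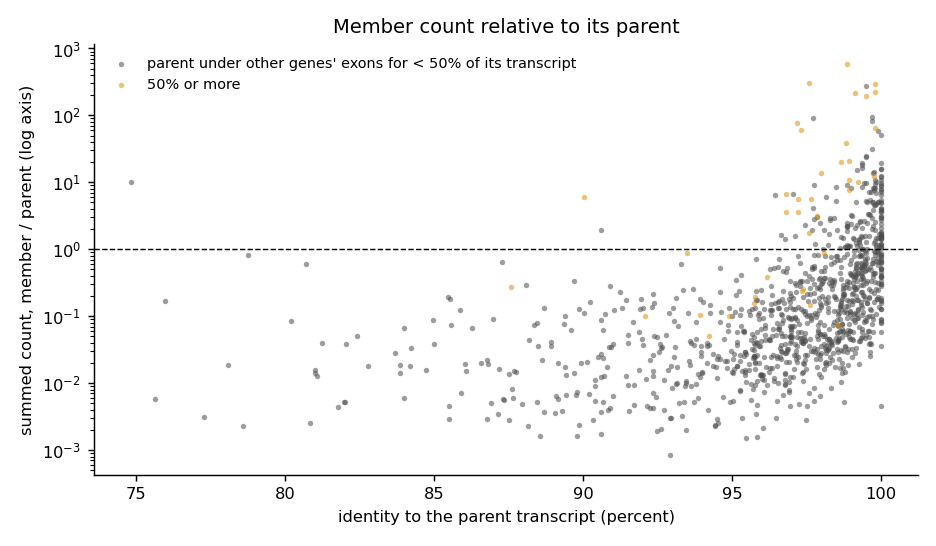
Summed count of each member divided by that of its parent (log axis) against identity to the parent transcript in percent, one point per member with a counted parent. The median ratio rises from 0.0171 under 90% identity to 1.41 at 100%, the dashed line marks equal counts, and orange points have a parent whose transcript lies under exons of other genes for 50% or more of its length.

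The highest ratios belonged to members with few counts on the parent. Gm15421, a copy of *Rpl22l1* (a ribosomal protein paralog), had 29433 counts against 108, a ratio of 273. An exon of Gm15421 overlaps an exon of *Orc5* on the same strand. Gm12191 (*Rpl30*), Gm9385 (*Rpl24*) and Gm13394 (*Gapdh*) had ratios of 83.0, 66.0 and 58.8. Exons of other genes covered 71.5% of the *Rpl24* transcript (Gm28037), 34.7% of that of *Rpl30* and 28.8% of that of *Rpl22l1*, but 0% of that of *Gapdh*. Over all members, the 46 whose parent lay under other genes' exons for 50% or more of its transcript had a median ratio of 8.92 (a parent at 0 counted as 3), and the 848 whose parent lay under no such exon 0.0853. The part of overlapping exons in these ratios was not tested. Gm13394 had 3510, 2644, 2584 and 3912 counts in WT 1 to 4 and 1941, 5184 and 4285 in null 1 to 3, where *Gapdh* had 41, 58, 39, 67, 44, 90 and 70. The copy led the enzyme's own gene in every sample by at least 44.1 times. Gm3839 and Gm10358 matched Gm13394 nearly as well as *Gapdh* did, so the choice of this parent is uncertain.

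The 5 families with most members placed most of their reads on the copies. Of the 511 families, 334 had 1 member, 51 had 5 or more, and in 154 the members together had more counts than the parent. *Rps2* had the most members at 31, and 94.9% of the family's counts lay on them, although its best copy, Gm12366, had only 3292 counts and no copy was above 98.98% identity. The 21 members of *Rpl21* took 93.3%, the 18 of *Ppia* 95.7%, the 18 of *Rpl7a* 86.5% and the 17 of *Hmgb1*, a chromatin protein, 75.2%. In the *Ppia* family a single copy dominated, with 164800 of 188873 member counts. Other large families kept most of their reads on the parent: in 13 of the 51 with 5 or more members the copies took under 50%, among them *Slc25a5*, which encodes a mitochondrial ADP/ATP carrier, with 7.40% on 8 members, *Rpsa* with 18.75% on 7 and *Npm1* with 12.4% on 6.

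One library stood apart in this respect. In 20 of the 474 families with 1000 counts or more, the members' share of the family in WT 4 was at least 10 percentage points below that in each of the other 6 samples, and no other sample had such a family on the low side (null 1 had 1 family on the high side, *Gnpda1*). These families were picked for their values, so the count is a description. For *Hspa8* the members took 91.4%, 91.3%, 91.5% and 78.2% of the family's counts in WT 1 to 4, and 91.1%, 91.7% and 91.7% in null 1 to 3. The parent gene was at 470 CPM in WT 4 and at 210 to 237 CPM elsewhere, while Gm15459 was at 1617 CPM in WT 4 and at 2212 to 2329 CPM elsewhere. *Rpl29* was at 175 CPM in WT 4 and at 10.2 to 19.5 CPM elsewhere, *Rps2* at 105 against 17.8 to 33.1, and the deacetylase gene *Hdac1* at 47.3 against 12.2 to 17.6. What sets WT 4 apart was not tested.

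By role of the parent, ribosomal proteins led: their 407 members held 58.0% of member counts, at a median identity of 96.96%. Chaperones and folding factors followed with 7.18% on 49 members, mainly the *Ppia* family, then respiration and mitochondria with 5.94% on 85 members of 57 parents, and translation factors and nascent chain proteins with 5.06% on 54. RNA binding and splicing proteins had 56 members and 3.09% of the counts, the cytoskeleton 29 and 2.79%, chromatin and nuclear proteins 55 and 2.52%, the ubiquitin and proteasome system 32 and 2.00%, and glycolysis 27 and 1.72%. Glycolysis had the highest median ratio of member to parent count, 0.645, and a median identity of 99.5%, while chromatin and nuclear proteins had the lowest ratio, 0.0330. No member had *Fth1* or *Ftl1* as its parent. The remaining 326 members had parents outside these lists, and 9 had no parent.

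The members' share of all counts in a library ranged from 10.6% to 13.9%. It was 11.35%, 13.2%, 12.3% and 10.6% in WT 1 to 4 and 13.9%, 13.6% and 12.2% in null 1 to 3. All 3 samples of batch 1 were above all 3 of batch 2 (13.2% to 13.9% against 10.6% to 12.3%), whereas the genotypes overlapped (11.9% ± 1.15, SD, n = 4, in WT and 13.2% ± 0.910, n = 3, in *Smchd1*-null). WT 1, run in both batches, lay within the batch 2 range at 11.35%. The 511 parent genes took 16.4% to 17.1% in every sample, and their ranges overlapped between the batches (16.8% to 17.0% against 16.5% to 17.1%).

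**Figure D2:**
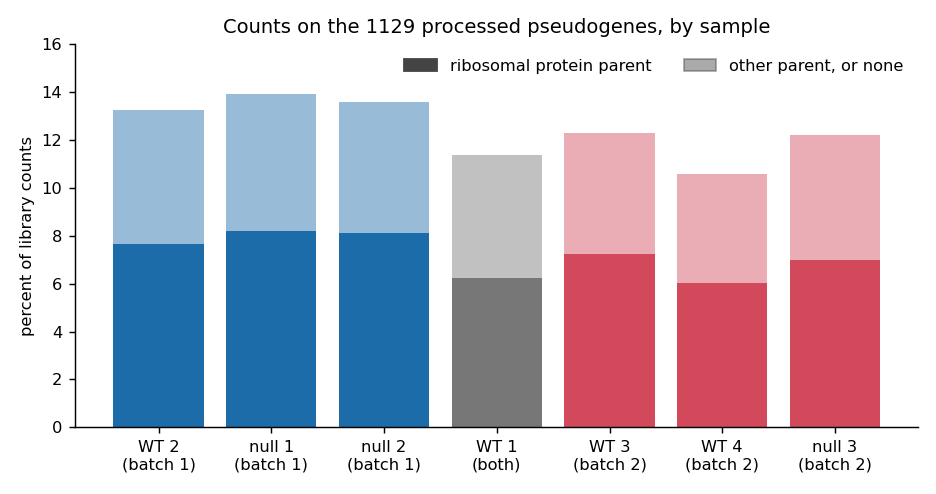
Percent of each library's counts on the 1129 members, one bar per sample, split into members with a ribosomal protein parent (dark) and the rest (light), coloured blue for batch 1, red for batch 2 and grey for the sample run in both. The batch 1 bars reach 13.2% to 13.9% and the batch 2 bars 10.6% to 12.3%.

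To ask whether the sequencing batch moved these counts, batch 2 was set against batch 1 in the 6 samples run in 1 batch only, with genotype as a term. Of 1124 members tested, 192 passed an adjusted p of 0.05, or 17.1%, against 11.3% of all 13107 genes tested. In this fit they leaned one way: 171 members, 15.2%, were lower in batch 2, against 5.77% of all genes, and 21, 1.87%, were higher, against 5.52%. The median log2 fold change of the members was -0.27 and that of all genes 0.019, and 841 members (74.8%) were below 0, against 48.2% of all genes. Their parents did not share the lean: of 497 tested, 41 were lower and 43 higher, with a median of 0.0048. The decline of the members was seen in each genotype, with a median difference in log-CPM of -0.28 in WT and -0.30 in *Smchd1*-null. It was not kept when the dependence of log-CPM on gene length was taken out of every sample: the members' median was then 0.0147. In that fit 109 of the 1124 members were called, 72 higher and 37 lower, and 1083 of all 13107 genes. That dependence was drawn through all genes tested, and members were many of the short ones. Up to 400 bases there were 320 members, against 10 protein-coding genes tested. Taking it out can also remove the members' own shift, so length and membership cannot be told apart this way.

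Member and parent were then set side by side. In 1089 pairs in which both were tested, the member's log2 fold change was below that of its parent in 826, by a median of 0.29 (a difference of -0.29). The members' share of their family was higher on average in batch 1 in 352 of the 474 families with 1000 counts or more. In the *Rps2* family the members' median log2 fold change was -0.70 with 10 of 31 called lower, and *Rps2* itself was at 0.12 (adjusted p = 0.853). In the *Ppia* family 17 of 18 members were below 0 and 5 were called lower, with *Ppia* at 0.17 (adjusted p = 0.308). For *Rpl7a*, whose 18 members had a median of -0.54, the parent was also called lower, at -0.34 (adjusted p = 0.0478).

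The lean differed with identity to the parent. Median log2 fold changes between the batches were -0.17 under 90% identity, -0.35 at 90 to 95%, -0.41 at 95 to 97%, -0.31 at 97 to 99%, -0.19 from 99% to under 100% and -0.10 in identical members. The parents of the same classes, each counted once for each of its members, had medians between -0.077 and 0.053. Members of intermediate identity therefore lay furthest from their parents, and the order from 95% upward was kept when each of WT 2, WT 3, WT 4, null 1 and null 2 was left out in turn. Without null 3 that order was lost and the classes lay close together, at -0.21 under 90%, -0.37 at 90 to 95%, -0.32 at 95 to 97%, -0.29 at 97 to 99%, -0.31 from 99% to under 100% and -0.25 in identical members. The share of members called lower did not follow the medians, being 2.22%, 9.55%, 14.6%, 18.4%, 18.6% and 20.2% from the lowest class to the highest, and median summed counts rose over the same classes from 180 to 2642.

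**Figure D3:**
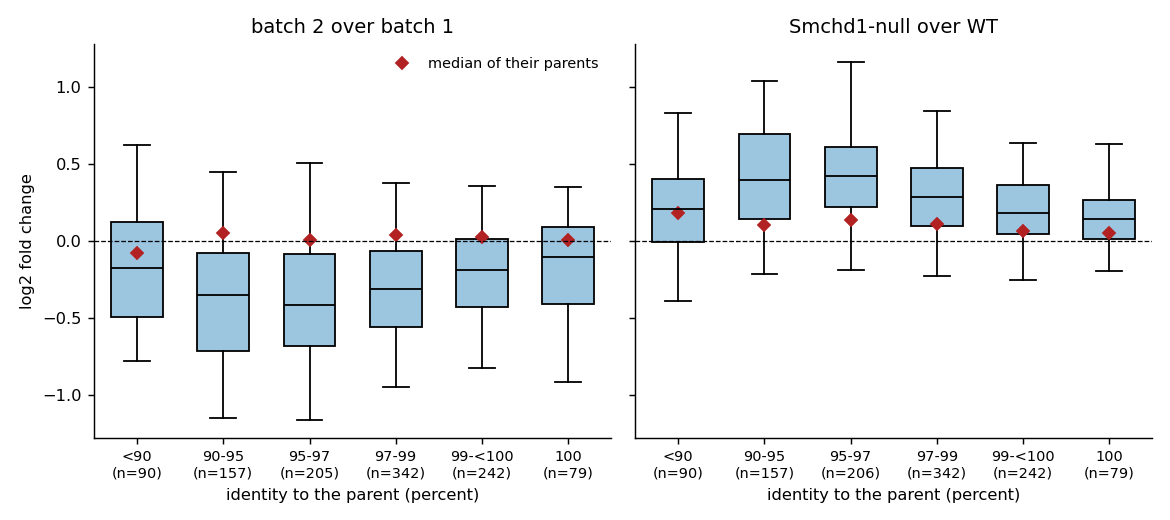
Log2 fold change of members between batches (left) and between genotypes (right) by identity to the parent. Boxes give quartiles and median, and whiskers the central range from percentile 5 to 95. Red diamonds give the median of the parents, each counted once for each of its members. Between batches the medians run from -0.41 at 95 to 97% identity to -0.10 at 100%, and between genotypes from 0.42 to 0.14.

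By role, members with ribosomal protein parents had a median of -0.41 between batches, with 88 of 403 called lower (21.8%, against 5.77% of all genes) and 8 higher (1.99%, against 5.52%), and those with a parent in none of the lists -0.20. Chromatin and nuclear proteins (-0.32, 11 lower, or 20%, and 1 higher of 55) and RNA binding and splicing proteins (-0.30, 11 lower, or 19.6%, and 2 higher of 56) came next. Translation factors were at -0.22 with 5 of 53 lower (9.43%), chaperones and folding at -0.26 with 5 of 49 (10.2%), respiration and mitochondria at -0.21 with 9 of 85 (10.6%), and ubiquitin and proteasome at -0.15 with 7 of 32 (21.9%), none of them with a member called higher. Glycolysis stood at -0.097 with 2 lower (7.41%) and 2 higher of 27, and the cytoskeleton at -0.10 with 2 lower (6.90%) and 1 higher of 29, both near the share of all genes called lower. The processed pseudogenes left out for an Rpl or Rps symbol had a median of -0.37.

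Copies of one gene differed in their values between batches, as the copies of *Rpl13*, a gene of the large ribosomal subunit, show. Gm15710 was at 2609, 2995 and 2647 CPM in WT 2, null 1 and null 2 and at 2099, 1764 and 2195 CPM in WT 3, WT 4 and null 3, with WT 1 at 2065. Gm12918 was at 1433, 1491 and 1579 CPM in the same batch 1 samples and at 849, 680 and 762 CPM in those of batch 2, with WT 1 at 781. The groups did not overlap for either copy. The fitted log2 values were -0.93 ± 0.090 for Gm12918 (SE; adjusted p = 0.00065), -0.36 ± 0.087 for Gm15710 (adjusted p = 0.0226) and -0.41 ± 0.10 for *Rpl13* (adjusted p = 0.0268), and the differences between them were not tested. The ratio of Gm12918 to Gm15710, at 100% and 99.8% identity to *Rpl13*, was 0.549, 0.498 and 0.597 in batch 1 and 0.405, 0.386 and 0.347 in batch 2, without overlap. Gm5075, a copy at 95.7% identity with 11 to 67 counts in a sample, was at -1.45 ± 0.33 (adjusted p = 0.0189). These copies, like those of *Ppia*, were picked after their values were seen.

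In the *Ppia* family Gm10123 was at 5151, 5710 and 5279 CPM in batch 1 and at 5073, 4356 and 5162 CPM in batch 2, ranges that overlapped, and it stood at -0.079 ± 0.080 on the log2 scale (adjusted p = 0.547). Gm43008 was at 507, 536 and 505 CPM in batch 1 and at 368, 305 and 340 CPM in batch 2, which did not overlap, at -0.57 ± 0.091 (adjusted p = 0.00467). Its ratio to Gm10123 was 0.0984, 0.0939 and 0.0958 in batch 1 and 0.0725, 0.0700 and 0.0659 in batch 2. Gm49039, the most distant copy shown, was at -0.17 ± 0.19 (adjusted p = 0.596).

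**Figure D4:**
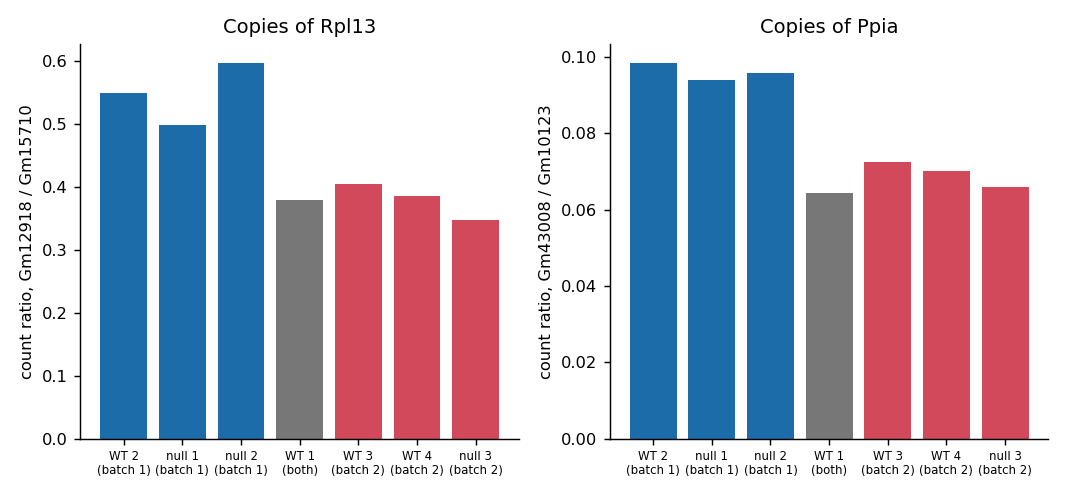
Ratio of the counts of 2 copies of the same gene in each sample, for Gm12918 over Gm15710 (copies of Rpl13, left) and Gm43008 over Gm10123 (copies of Ppia, right), coloured by batch. The batch 1 bars run from 0.498 to 0.597 and from 0.0939 to 0.0984, above all batch 2 bars, and WT 1, run in both batches, is at 0.378 and 0.0643.

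Among the 10 members with most counts, 4 were called lower in batch 2, where 15.2% of all members and 5.77% of all genes were. Gm11478 (*Rpl13a*; chr11:86630428-86631026, minus strand, in an intron of *Vmp1*) was at 2817, 3017 and 3036 CPM in batch 1 and 1835, 1640 and 1856 CPM in batch 2, or -0.67 ± 0.078 (adjusted p = 0.00138), while *Rpl13a* was at 0.11 ± 0.13 (adjusted p = 0.637). Exons of Gm45713 and Mir5121 cover 59.3% of the *Rpl13a* transcript, and Gm45713 matched Gm11478 nearly as well as *Rpl13a* did, so this parent's counts and its choice are uncertain. Gm15710 was at -0.36, and the other 6 of the 10 between -0.21 and 0.19 did not pass. In edgeR only Gm11478 of the 4 kept its call (adjusted p = 0.0325), and without WT 2 or null 3 none of the 4 passed in limma.

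The members that fell most between batches, among those called whose batches did not overlap, were low in count. Oaz2-ps (chr3:135525964-135526532, minus strand), a copy of the ornithine decarboxylase antizyme gene *Oaz2*, was at 5.997, 5.26 and 3.86 CPM in batch 1 and 1.05, 1.71 and 0.866 CPM in batch 2, or on the log2 scale -2.15 ± 0.45 (adjusted p = 0.0132), and *Oaz2* itself was at -0.47 ± 0.13 (adjusted p = 0.0385). Gm9409 (chr3:136948605-136948920, plus strand; *Rpl36a*) was at 4.66, 6.01 and 8.92 CPM and then at 3.15, 3.26 and 0.649 CPM, or -1.97 ± 0.58 (adjusted p = 0.0468). Gm43028 (chr5:67988527-67989007, minus strand; *Rpl21*) went from 3.33, 6.01 and 5.86 CPM to 1.05, 1.37 and 1.30 CPM, or -1.84 ± 0.42 (adjusted p = 0.0177). In each of the 3 the lowest batch 1 sample was above the highest batch 2 sample. WT 1, run in both batches, lay between them, at 2.93, 3.66 and 2.44 CPM.

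Gm7117 (chrX:105725128-105725514, minus strand; *Rpl12*) was at 5.997, 7.51 and 15.4 CPM in batch 1 and 3.93, 2.40 and 2.16 CPM in batch 2, or -1.76 ± 0.47 (adjusted p = 0.0331), and *Rpl12* at -0.42 ± 0.12 (adjusted p = 0.0401). Gm6921 (chr8:127561435-127561869, plus strand, in an intron of *Pard3*; *Rps15*) was at 7.996, 8.63 and 6.92 CPM and then at 1.84, 1.89 and 3.25 CPM, or -1.50 ± 0.36 (adjusted p = 0.0220). The parent *Rps15*, with 53738 counts, was at 0.088 ± 0.090 (adjusted p = 0.551). For both copies WT 1, run in both batches, was below every batch 2 sample, at 1.47 CPM for Gm7117 and 1.71 CPM for Gm6921.

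The 5 largest rises included the only copies of non-ribosomal genes in this group besides Oaz2-ps. Gm5182 (chr12:10152142-10158233, plus strand), a 6092-base copy of the acetyl-CoA carboxylase gene *Acaca*, was at 2.44, 1.13 and 1.33 CPM in batch 1 and 5.77, 5.32 and 5.84 CPM in batch 2, or 1.73 ± 0.37 (adjusted p = 0.0141). Gm4798 (chr10:71704290-71705988, plus strand), a copy of the transcription factor gene *Etv5*, was at 2.67, 2.25 and 1.86 CPM and then at 11.3, 7.72 and 6.28 CPM, or 1.71 ± 0.32 (adjusted p = 0.00910). Neither parent passed, with *Acaca* at 0.21 ± 0.19 and *Etv5* at -0.095 ± 0.096 (adjusted p = 0.488 and 0.551). WT 1, run in both batches, lay outside both ranges for these copies. It was at 13.2 CPM for Gm5182, above every batch 2 sample, and at 1.47 CPM for Gm4798, below every batch 1 sample.

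Gm12469 (chr4:54235670-54235876, minus strand; *Rpl17*) was at 5.55, 7.51 and 8.12 CPM in batch 1 and 25.7, 20.9 and 21.9 CPM in batch 2, or 1.69 ± 0.22 (adjusted p = 0.00192). Gm8158 (chr10:81985938-81986402, minus strand; *Rpl23a*) was at 2.22, 2.63 and 7.19 CPM and then at 15.99, 11.8 and 8.66 CPM, or 1.46 ± 0.42 (adjusted p = 0.0430), and its parent, with 38 counts, was too low to be tested. Gm10269 (chr18:20682594-20682963, minus strand; *Rpl35*) was at 38.6, 50.3 and 56.6 CPM and then at 164, 102 and 123 CPM, or 1.46 ± 0.17 (adjusted p = 0.00135). Its parent rose too, at 0.95 ± 0.24 (adjusted p = 0.0289), but exons of other genes cover 68.3% of the parent transcript. WT 1 was at 12.5 CPM for Gm12469, between the batches. It was within the batch 1 range for Gm8158, at 3.91 CPM, and within the batch 2 range for Gm10269, at 120 CPM.

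The calls of these 10 members changed with the libraries used. Without WT 2, and without null 3, none of the 10 passed an adjusted p of 0.05 in limma. Gm7117 and Gm9409 also lost the call without each of the other 4 samples, at adjusted p from 0.0507 to 0.0749 for Gm7117 and from 0.0637 to 0.136 for Gm9409. Gm8158 lost it without WT 3, WT 4 or null 1 (adjusted p = 0.112, 0.0591 and 0.176). Gm5182 lost it without WT 3, null 1 or null 2 (0.0579, 0.0565 and 0.0618), Gm43028 without WT 3 or null 1 (0.0871 and 0.0602), Gm6921 without WT 3 or null 1 (0.0689 and 0.0642) and Oaz2-ps without WT 3 (0.0653). Only Gm12469, Gm10269 and Gm4798 passed without each of WT 3, WT 4, null 1 and null 2.

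**Figure D5:**
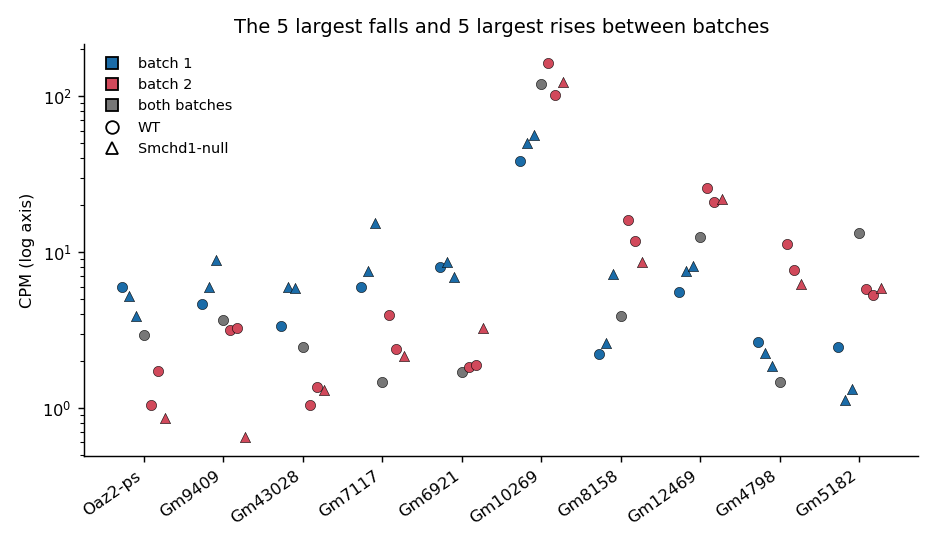
CPM (log axis) in each sample of the 5 called members with the largest falls (left) and the 5 with the largest rises (right) from batch 1 to batch 2, circles for WT and triangles for Smchd1-null. Blue batch 1 points and red batch 2 points do not overlap within any of the 10 members, which was a condition for showing them, and levels run from 0.649 to 164 CPM. Grey points are WT 1, run in both batches, which was not part of that condition.

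Gene length moved with the batch difference. The median was -0.27 in members up to 400 bases, -0.26 at 400 to 600, -0.36 at 600 to 1000, -0.19 at 1000 to 2000 and 0.098 in the 34 over 2000 bases. Protein-coding genes had medians of -0.0069, -0.10, -0.092, -0.12 and 0.070 in the same ranges, with only 10 and 26 genes tested up to 400 and at 400 to 600 bases. Neither series was steady, and in both the highest median was that of the genes over 2000 bases. Protein-coding genes within the members' middle length range (377 to 865 bases, 136 tested) were at -0.10, against -0.27 for the members. With the dependence on length taken out, as above, the medians by identity were -0.12 at 95 to 97% and 0.19 in identical members. The part of length in the difference between members and other genes was not tested beyond these values.

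The number of members called between batches changed with the libraries used. Without WT 2 or without null 3 the fit called 0 members at an adjusted p of 0.05, and 3 and 1 genes of the whole table, while the members' median stayed at -0.30 and -0.29. It called 74 members among 380 genes of the whole table without null 1, and 107 among 660 without null 2. The counts were 116 among 728 without WT 3 and 157 among 1369 without WT 4, and in the last the median was -0.26. The edgeR quasi-likelihood test called 47 members, 41 of them lower, among 240 genes of the whole table. DESeq2 called 91 members, 84 of them lower, among 480 genes.

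To ask whether loss of *Smchd1* moved these genes, *Smchd1*-null was compared with WT over all 7 samples. None of the 1125 members tested passed an adjusted p of 0.05 in limma, where 0.0902% of the 13305 genes tested did (12 genes), and edgeR and DESeq2 also called 0. The members passing 0.05 were 32 without null 3, 1 without WT 2 and 1 with the replicate number as a block. All genes passing in these fits were 161, 25 and 23. At an adjusted p of 0.25, 3 members passed, or 0.267%, against 1.08% of all genes. At an unadjusted p of 0.05, 240 members passed, or 21.3%, against 13.9% of all genes, and of these 231 were higher and 9 lower in *Smchd1*-null. The members' median log2 fold change was 0.27 with 931 (82.8%) above 0, while all genes had a median of 0.0049 and 50.6% above 0, and the parents a median of 0.061. The members were above their parents in 813 of 1090 pairs, by a median of 0.19.

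Genotype and batch were unequally mixed, since 2 of the 3 *Smchd1*-null samples and 1 of the 4 WT samples were run in batch 1 only, and both comparisons use the same samples. Within batch 1 the members' median difference in log-CPM, *Smchd1*-null minus WT, was 0.087 (2 against 1 sample), and within batch 2 it was 0.077 (1 against 2). Adding the share of batch 2 as a covariate gave a fitted median of 0.11, and 1 member passed 0.25 among 74 genes of the whole table. With the length trend removed, which can also take out the members' own shift, it was -0.0088. Without null 2 it fell to 0.13 and without WT 4 it was 0.24, and 0 members passed 0.25 in either (2 and 43 of all genes). Without WT 2 or null 3, 354 and 406 members passed 0.25, among 2924 and 3153 genes of the whole table.

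The 3 members that passed 0.25 were all higher in *Smchd1*-null. AC121135.2 (chr18:87474188-87474671, minus strand), a copy of *Ppia* at 96.1% identity, was at 6.11, 13.1, 6.55 and 4.46 CPM in WT 1 to 4 and at 15.01, 27.5 and 11.5 CPM in null 1 to 3. WT 2 lay above null 3, so the groups overlapped. The fit gave 1.53 ± 0.37 on the log2 scale (SE; adjusted p = 0.191), and within batches the difference was 0.62 in batch 1 and 1.03 in batch 2. *Ppia* was at 0.099 (adjusted p = 0.774).

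Gm15454 (chr1:134518081-134518563, plus strand), a copy of *Rpl29* at 99.2% identity, was at 14.4, 23.1, 15.99 and 14.2 CPM in WT and 31.2, 39.4 and 17.5 CPM in *Smchd1*-null, with WT 2 again above null 3. It stood at 0.98 ± 0.26 (adjusted p = 0.233), and 0.59 and 0.21 within batches 1 and 2. Gm13777 (chr2:91030778-91031122, minus strand), a copy of *Rplp1* at 92.5% identity, was at 0.977, 3.78, 2.62 and 1.89 CPM in WT and 6.01, 7.99 and 3.46 CPM in *Smchd1*-null, at 1.64 ± 0.44 (adjusted p = 0.233), and 0.81 and 0.55 within batches. All 3 were also lower in batch 2, with log2 fold changes of -0.99, -0.85 and -0.90, of which that of Gm15454 passed (adjusted p = 0.0159). None of the 3 passed 0.25 when null 1, null 2, WT 1, WT 3 or WT 4 was left out, nor in edgeR or DESeq2. With the share of batch 2 as a covariate they did not pass either. AC121135.2, Gm15454 and Gm13777 were then at 0.89, 0.56 and 1.02 (adjusted p = 0.354, 0.374 and 0.447), and the 1 member that passed in that fit was another.

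By identity, the genotype medians followed the same classes: 0.21 under 90%, 0.40 at 90 to 95%, 0.42 at 95 to 97%, 0.29 at 97 to 99%, 0.18 from 99% to under 100% and 0.14 at 100%. With that share as a covariate they were 0.10, 0.17, 0.20, 0.12, 0.071 and 0.062. By role, members with a ribosomal protein parent were at 0.41 and their parents at 0.23, translation factors at 0.30 against 0.059, chaperones and folding at 0.28 against 0.099, and chromatin and nuclear proteins at 0.21 against -0.015. Respiration and mitochondria were at 0.24 against 0.014, ubiquitin and proteasome at 0.15 against 0.071, and RNA binding and splicing at 0.14 against 0.0066. In 2 roles the members' median lay below that of the parents: glycolysis at 0.14 against 0.32 and the cytoskeleton at 0.10 against 0.15. In these medians a parent counts once for each of its members. The glycolysis value is thus that of *Gapdh*, the parent of 16 of the 27 members, with 409 counts (0.32 ± 0.22, SE; adjusted p = 0.497). Those of chaperones, chromatin, translation factors and RNA binding equal the values of *Ppia*, *Hmgb1*, *Npm1* and *Hnrnpa3*. Of the 3 called members, 2 had a ribosomal protein parent and 1 a chaperone parent. Because *Smchd1* acts on the inactive X chromosome, the 72 members on the X chromosome were set beside the rest: their median was 0.26, and that of the 1056 autosomal members 0.27. Whether these lines hold an inactive X chromosome was not examined, so these medians cannot decide on silencing there. Members within an intron on the same strand were at 0.20 and members in no other gene at 0.28.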

How the data were processed

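The deposited files give raw whole-number counts per gene and, in another column, gene length in bases. Per the study's methods, the authors aligned long cDNA reads to mm10 with minimap2 2.17 (spliced mode) and counted primary alignments with featureCounts on Gencode M23, summing runs of the same sample. Strand use in counting was not given in the sources used here, so overlapping and antisense genes cannot be told apart, and a read of a near-identical copy is counted where its primary alignment fell. The cells were FVB/N while mm10 derives from another strain.

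Types, symbols, coordinates and sequences came from Gencode M21 (same GRCm38 build): of 55335 identifiers, 54587 matched with version, 55154 without, and 181 had no match. Parents were found with blastn 2.17.0 (plus strand, identity of 70% or more over 50% or more of the member, best bit score). Genes were filtered with filterByExpr, scaled by TMM and fitted with limma 3.58.1 voomWithQualityWeights in R 4.3.3, on genotype alone (7 samples) or on batch with genotype (6 samples), two-sided, Benjamini-Hochberg adjusted over all genes tested. Where no tool is named, adjusted p-values come from limma. Batch shares were taken as 0 for batch 1, 1 for batch 2 and midway for WT 1. CPM uses TMM-scaled totals, log-CPM a prior count of 2. Alternatives used edgeR 4.0.16 and DESeq2 1.42.0. The fit was tested on simulated data.

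Named members were the 10 with most counts, those with adjusted p under 0.25 by genotype, the 5 largest rises and 5 largest falls between non-overlapping batches, the 5 highest ratios to a parent of 100 counts or more, the 6 largest families, those beside the threshold of 100, and their parents. Some genes and sequences that this rule names are not reported here. Members and lists were chosen with earlier results of these data known. Deviations of same-numbered samples correlated at -0.038, 0.363 and 0.094, so numbers were not taken to pair samples.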

Additional observations from a re-analysis of the deposited data

Results flagged for a closer look

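In the 4 WT samples, 3 of 38 results had a sample far from the others by Dixon's ratio. Chance gives about 1 in 20 for results not picked by their values, which the members picked for a batch difference were. WT 4 was low for Gm15459, the *Hspa8* copy (ratio 0.891), and for the share of *Rps2* family counts on members (0.862), at 83.2% against 95.6% to 97.6% in the other WT samples. WT 2, the WT sample run in batch 1 only, was high for Gm6921, the *Rps15* copy (0.942). Gm6921 was picked as a fall between batches that do not overlap, which set WT 2 above WT 3 and WT 4 in advance. No cause was tested. The 3 *Smchd1*-null samples are too few for this check.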

How the results depend on the processing

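The number of members called by genotype at an adjusted p of 0.25 (main value 3) was 0 with edgeR, without sample quality weights and with all genes that had a count, and 1 with DESeq2, with the batch share as covariate and with the length trend removed. With the replicate block it was 11, and 1 member passed 0.05. Leaving out a replicate gave 0 to 406 at 0.25, the high counts coming without WT 2 (354) and without null 3 (406), and 0 to 32 at 0.05. All genes called in the fits without a replicate were 1 to 3153 at 0.25 and 1 to 161 at 0.05, against 144 and 12 in the main fit. The median was 0.13 to 0.34 over those fits. It turned to -0.0088 with the length trend removed, and by batch to 0.0147, in fits that can also take out the members' own shift. Members called by batch (main value 192) were 47 with edgeR, 91 with DESeq2, 41 without quality weights and 109 with the length trend removed, and 0 to 157 with a replicate left out. All genes called were 1479 in the main fit, 240, 480, 209 and 1083 under those 4 settings, and 1 to 1369 with a replicate left out. By batch the median was -0.34 to -0.25 over the fits without a replicate. No paired analysis was possible for batch because replicate numbers are nested in it.

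Of the members with most counts, with the length trend removed Gm10123, Gm14303, Tpt1-ps3, Gm15459, Gm10288 and Gm9794 turned by genotype to -0.1184, -0.2487, -0.1867, -0.02, -0.0999 and -0.2609, and the first 5 of these by batch to 0.2311, 0.3101, 0.0908, 0.0463 and 0.1882. Tpt1-ps3 by genotype was also at -0.0599 with the batch share and -0.025 with the replicate block, Gm9794 ran from -0.044 (without WT 1) to 0.2145 over the fits that left out a replicate, and Gm15459 by batch from -0.2032 to 0.0081 (without WT 4). Of these, Gm9794 by batch was called with the length trend removed, at 0.5168 (adjusted p = 0.00566 in limma), and Tpt1-ps3 by batch with all genes that had a count, at -0.23 (adjusted p = 3.375e-05). No other value of these 6 members named here passed a threshold.

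The share of counts on members (12.0% to 12.6% as a mean over samples under 3 alternatives, 12.4% as reported) and the number with a parent (1025 and 1118 under 2 stricter rules, 1120 as reported) kept their size. Single calls have little depth behind them where members hold about 100 counts over 7 samples, and counting error alone is large there.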
